A study of Mus musculus with 6 samples.

Results

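Stromal cells of mouse fat, sorted by a Zfp423-GFP reporter, were compared for transcripts of the protein folding and export machinery of the endoplasmic reticulum (ER). The set holds 41 genes, chosen by name with earlier results of these data known. Every probe whose platform symbol was one of them was taken. The array has 19057 gene symbols in its annotation. Of the 41 genes, 39 had at least 1 probe, 70 probes in all, and 33 genes had a probe bright enough to be tested, with 45 tested probes. No probe carried the symbol of Dnajb11 or Fkbp10.

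The samples were 6 sorted cell populations, 3 GFP-positive and 3 GFP-negative, each on 1 Illumina bead array. The mice were males, 5 weeks old, and the tissue was their epididymal fat; all carried the Zfp423-GFP reporter, which both groups therefore share. Stromal vascular cells with PDGFRβ on the surface and without CD31 (endothelial) or CD45 (leukocyte) were split by flow cytometry on GFP fluorescence. Fat cell precursors express Zfp423, which encodes a zinc-finger protein that regulates transcription. The design text calls the triplicates biological, but the sources used here do not say whether a sample pooled several animals or how the reporter was built. The titles open with the letters RG (GFP-positive replicates 1 and 2, GFP-negative replicate 1) or KM (the other arrays), whose meaning was not given, so differences within each of these sets are also printed.

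Secreted and membrane proteins enter the ER through the SEC61 channel, lose their signal peptide to the signal peptidase, and fold with the help of chaperones, disulfide isomerases and prolyl isomerases. When unfolded proteins build up, the sensors IRE1, PERK and ATF6 start the unfolded protein response, whose transcription factors XBP1, ATF4 and ATF6 raise the genes for chaperones and for ER-associated degradation. Fibroblast-like stromal cells make large amounts of collagen, which needs prolyl hydroxylation and prolyl isomerization in the ER before its triple helix is complete.

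The best-known control element of this machinery is the ER stress response element, ERSE, which the promoter of Hspa5 carries and through which ATF6 acts. A search for its letters, CCAAT followed after 9 bases of any kind by CCACG, on either strand, was run in RefSeq promoters of GRCm38.p6 that span 250 bases before and 50 after the annotated start. It matched 7 of the 34 members that have a promoter in that table (38 promoters in all), against 0.119% of all 32851 promoters. The matches, each with 10 bases on both sides and the fixed letters of the element in capitals (CCAAT and CCACG, or CGTGG and ATTGG where the element lies on the opposite strand), are printed 5′ to 3′ on the gene's strand to show which members share it:
Hspa5, chr2:34772015-34772053, plus strand: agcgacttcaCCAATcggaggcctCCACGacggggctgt
Hsp90b1, chr10:86705628-86705666, minus strand: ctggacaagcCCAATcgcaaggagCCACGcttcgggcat
Hsp90b1, chr10:86705523-86705561, minus strand: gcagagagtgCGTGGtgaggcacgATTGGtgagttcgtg
Calr, chr8:84847065-84847103, minus strand: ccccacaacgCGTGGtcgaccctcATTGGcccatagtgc
Canx, chr11:50325790-50325828, minus strand: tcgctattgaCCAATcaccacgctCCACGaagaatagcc
Dnajc3, chr14:118937817-118937855, plus strand: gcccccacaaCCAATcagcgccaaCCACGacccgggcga
Creld2, chr15:88819510-88819548, plus strand: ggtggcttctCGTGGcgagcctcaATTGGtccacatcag
Pdia6, chr12:17266481-17266519, plus strand: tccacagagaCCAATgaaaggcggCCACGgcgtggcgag
Of these, 6 genes are chaperones or their partners and Pdia6 is a disulfide isomerase. No prolyl isomerase, translocon or unfolded protein response gene of the set had these letters in its window.

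The shorter element ERSE-II (ATTGG, 1 base of any kind, then CCACG, in 0.0365% of all promoters) matched Herpud1 and Dnajb11. The Herpud1 match starts 52 bases before the annotated start, and its fixed letters are again in capitals:
Herpud1, chr8:94386367-94386397, plus strand: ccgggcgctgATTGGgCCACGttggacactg
TGACGTGG, bound by XBP1 and ATF6 and found in 0.676% of all promoters, and TGATGNAAT, the element of ATF4 found in 0.965%, matched no member. A match is a string of letters and not a shown binding site.

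The ER genes as a set did not move one way. Levels are given as log2 of the background-corrected, quantile-normalized signal, and a gene was called when its limma p, adjusted by the Benjamini-Hochberg method over all tested probes, was under 0.05. By that rule 5 of the 33 tested members rose in GFP-positive cells (Fkbp11, Pdia5, Fkbp7, Fkbp9 and Ssr4) and 2 fell (Hspa5 and Pdia4), while the rule called 15.8% of all 8819 tested genes, 8.65% higher and 7.17% lower. Pdia4 was detected in GFP-negative cells only and so entered the test through its high group. Among genes detected in both groups, 6 of 32 members were called (18.8%), 5 higher and 1 lower, beside 14.3% of 8646 genes. The median difference over the tested members was -0.0059, beside -0.02 over all tested genes, and the values ran from -0.80 (Pdia4) to 0.91 (Calr, not called). Both ends were probes near background, at -0.35 and 0.36 without background correction. Values of the groups did not overlap for 13 of the 33 members, 9 higher and 4 lower with Pdia4 among the latter, against 36.5% of all tested genes. In sorted bulk samples, a change in the share of cells that express a gene and a change of RNA per cell cannot be told apart.

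**Figure D1:**
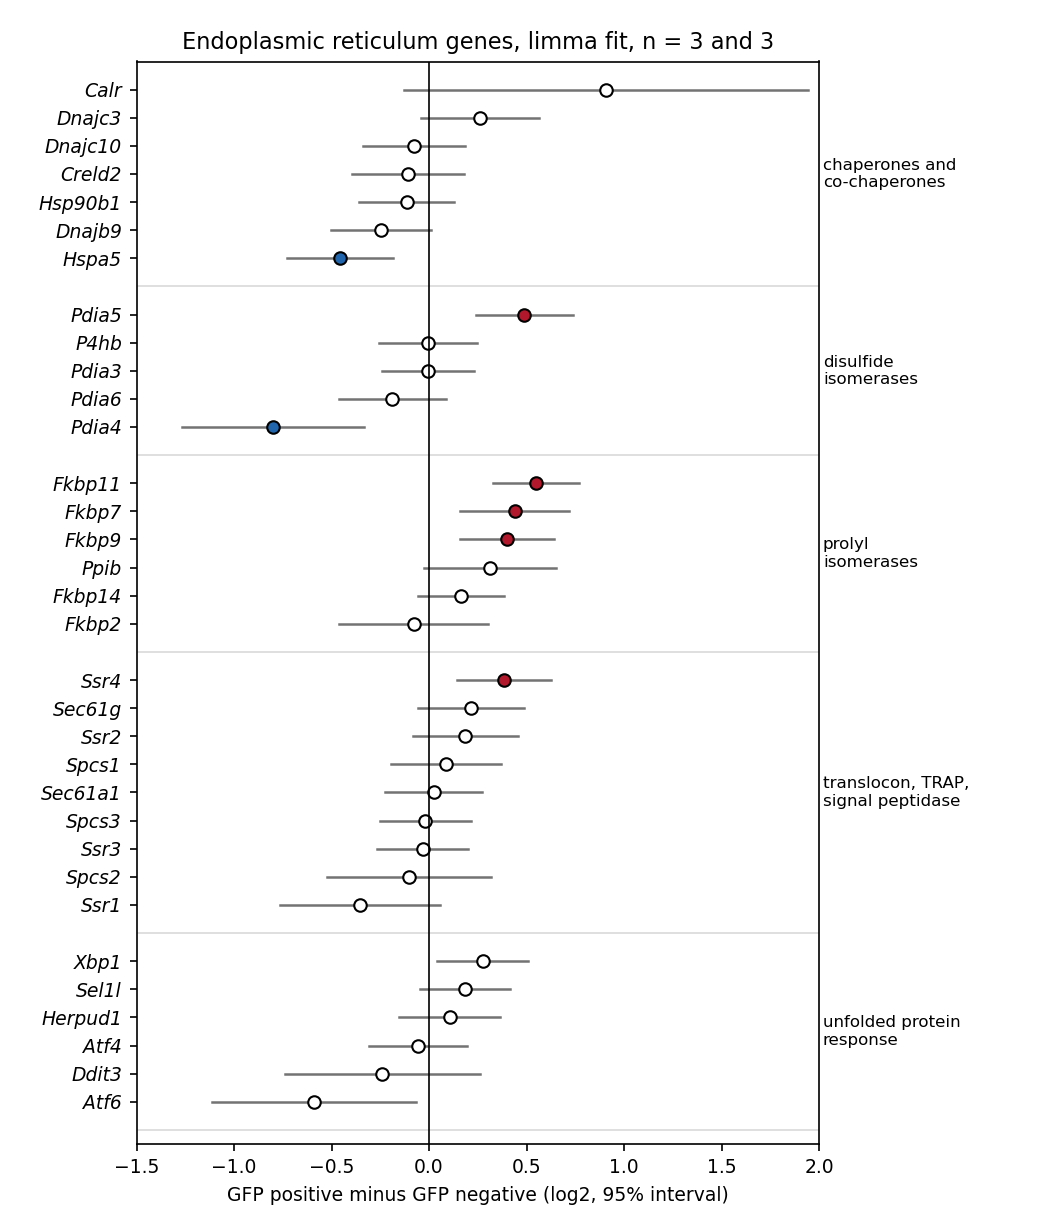
Difference between GFP-positive and GFP-negative cells for the 33 tested members, by role (log2, horizontal axis; points are limma estimates, bars their 95% intervals, n = 3 arrays per group). Filled red points rose and filled blue points fell at an adjusted p under 0.05; all 3 called prolyl isomerases lie to the right of 0, the called chaperone lies to the left, and the called disulfide isomerases lie on both sides. The Pdia4 point is a fitted value against background.

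Prolyl isomerases held most of the rises. These enzymes turn the peptide bond before proline, a slow step in the folding of collagen and other proline-rich chains. Of the 7 listed genes 6 were tested, 3 rose and none fell, with a median of 0.36. Over all tested genes 8.65% were called higher and 7.17% lower. Since the members were chosen with earlier results of these data known, this count is not a test of the group. Ppic, a further prolyl isomerase kept in another list of folding factors, read 15.17 on all 6 arrays. Quantile normalization gives probes of the same rank the same value, so this identity does not measure a lack of change. Fkbp11, an ER isomerase described in secretory tissues, read 11.36, 11.39 and 11.30 in GFP-positive cells, against 10.80, 10.79 and 10.83 in GFP-negative cells. All 3 GFP-positive values lay above all 3 GFP-negative ones, with little spread in either group. The rise was 1.46-fold (log2 0.55 ± 0.09 SE, limma adjusted p = 0.0101), and it was 0.58 among the RG arrays and 0.50 among the KM arrays. Among the 7 called members, Fkbp11 alone kept its call at the 0.05 threshold under all 17 other ways of processing, the 6 fits that each leave out 1 array included (0.53 to 0.58).

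Fkbp7 and Fkbp9, both lumenal FK506-binding proteins of the ER, moved by less. Fkbp7 read 11.66, 11.75 and 11.85 in GFP-positive and 11.22, 11.23 and 11.48 in GFP-negative cells. The groups did not overlap, and the difference of 0.44 ± 0.12 SE passed narrowly (limma adjusted p = 0.0497). Fkbp9 read 14.62, 14.49 and 14.65 against 14.14, 14.15 and 14.26, again without overlap, a difference of 0.40 ± 0.10 (limma adjusted p = 0.0422). Within the RG and KM arrays the differences were 0.48 and 0.49 for Fkbp7 and 0.41 and 0.44 for Fkbp9. Neither call survived the loss of any 1 of the 6 arrays, where the limma adjusted p ran from 0.0588 to 0.164 for Fkbp7 (0.39 to 0.52) and from 0.0637 to 0.138 for Fkbp9 (0.37 to 0.45). With median scaling Fkbp9 differed by 0.24. With the title letters as a block both calls ended narrowly (adjusted p = 0.0519 for Fkbp7 and 0.0557 for Fkbp9).

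The other prolyl isomerases did not pass. Ppib, cyclophilin B, which works with P3h1 and Crtap on collagen, read 12.88, 13.02 and 12.65 against 12.72, 12.46 and 12.41. The highest GFP-negative array overlapped the lowest GFP-positive one, and the difference was 0.31 (95% interval -0.03 to 0.65, limma adjusted p = 0.191). Fkbp14, an isomerase whose loss in humans causes a connective tissue disorder, read 13.28 to 13.32 against 13.08 to 13.19 without overlap, a difference of 0.16 (interval -0.06 to 0.39). Fkbp2 differed by -0.08 (interval -0.46 to 0.31).

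Chaperones held 1 call, downward, among 7 tested genes, beside 7.17% of all tested genes called lower. Hspa5 encodes BiP, the main chaperone of the ER lumen and the usual marker of the unfolded protein response. It read 10.10, 10.32 and 10.13 in GFP-positive and 10.52, 10.69 and 10.72 in GFP-negative cells. All GFP-positive arrays lay below all GFP-negative ones, a 1.37-fold fall (log2 -0.46 ± 0.12 SE, limma adjusted p = 0.0410). Among the RG arrays alone it was -0.31, and among the KM arrays -0.57. Of the 6 fits that leave out 1 array only that without GFP-negative replicate 1 kept the call (-0.52, adjusted p = 0.0492). The others gave -0.53 to -0.41, with a limma adjusted p of 0.0507 to 0.136, and with the title letters as a block the call also ended (-0.44, adjusted p = 0.0801).

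The remaining chaperones that were tested did not pass in either direction. Hsp90b1, the ER member of the HSP90 family, read 13.71, 13.86 and 13.85 against 13.97, 13.95 and 13.84, a difference of -0.11 (interval -0.36 to 0.13). Dnajb9, a J-domain partner of BiP, was lower on both of its probes, by -0.25 (limma adjusted p = 0.177) and -0.30 (adjusted p = 0.111). Its groups did not overlap on either probe. Dnajc3, another J-domain partner, differed by 0.26 (interval -0.04 to 0.56), within RG by 0.41 and within KM by 0.03. Dnajc10, a disulfide reductase, and Creld2, a stress-induced secretory protein, differed by -0.08 and -0.11 on their brighter probes. The other Creld2 probe read higher by 0.13, and none of these values passed. Calr, the calcium-binding lectin calreticulin, was detected on 2 GFP-positive arrays and 1 GFP-negative array. Its values of 7.42, 6.10 and 6.59 against 5.14, 6.55 and 5.70 overlapped, and its difference of 0.91 had an interval of -0.13 to 1.94.

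The members that share the ERSE letters did not share a direction. Among the 6 of them that were tested, Hspa5 fell and no other passed on its representative probe, although the dimmer Pdia6 probe did, as lower. On the representative probes Calr and Dnajc3 read higher, and Hsp90b1, Creld2 and Pdia6 lower. Over the whole array 14 tested genes carried the element, Hspa5 among them, of which 1 rose and 2 fell (21.4%), with a median of -0.11. Of all 8819 tested genes 15.8% were called, 8.65% higher and 7.17% lower. The 150 bases before the annotated start of the called chaperone and of the most stable riser are printed for comparison, with CCAAT and CCACG (or their complements ATTGG and CGTGG) in capitals. These short strings are common, in 37.4% and 32.8% of all promoters:
Hspa5, chr2:34771940-34772089, plus strand: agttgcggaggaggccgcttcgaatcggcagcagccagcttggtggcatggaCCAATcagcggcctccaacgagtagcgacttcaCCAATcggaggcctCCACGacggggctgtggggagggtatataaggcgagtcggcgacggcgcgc
Fkbp11, chr15:98727628-98727777, minus strand: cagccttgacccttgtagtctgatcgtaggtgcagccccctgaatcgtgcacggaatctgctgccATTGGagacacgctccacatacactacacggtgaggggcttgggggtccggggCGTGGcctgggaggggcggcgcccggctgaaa
The Hspa5 stretch holds 2 CCAAT strings and 1 CCACG, and the last pair is spaced as in the element. The Fkbp11 stretch, from 1 of its 2 annotated starts, holds 1 of each without that spacing.

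Disulfide isomerases form and reshuffle the disulfide bonds of new proteins, and all 5 listed genes were tested. Of the 4 detected in both groups, 1 rose on its representative probe and none fell, beside 665 higher and 573 lower of 8646 such genes. Pdia5 read 10.86, 10.72 and 10.73 in GFP-positive and 10.35, 10.32 and 10.18 in GFP-negative cells, with no overlap. It rose by 0.49 ± 0.11 SE (limma adjusted p = 0.0240), with 0.44 among the RG arrays and 0.48 among the KM arrays. Its dimmer probes differed by 0.41 and 0.39, in the same direction but with overlapping groups (adjusted p = 0.277 and 0.227). Of the single arrays left out, only the loss of GFP-negative replicate 1 kept the Pdia5 call (0.52, limma adjusted p = 0.0449); without each of the others the difference was 0.44 to 0.51 and the adjusted p 0.0510 to 0.0853.

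Pdia4, a disulfide isomerase found in complexes with BiP, was detected on all 3 GFP-negative arrays and on no GFP-positive array. It read 6.66, 7.37 and 6.92 on the former and 6.22, 6.34 and 5.99 on the latter, all of these near background. It was at least 1.70-fold lower in GFP-positive cells (limma adjusted p = 0.0372). This bound sets the GFP-negative mean against, on each GFP-positive array, the higher of the probe's value and the lowest signal of any detected probe. Pdia4 entered the test through the group where it was high, so its call adds nothing to a count of members. Within the RG and KM arrays the fitted difference was -0.38 and -1.15, and with the title letters as a block -0.77 (adjusted p = 0.0777). Without background correction it was -0.35 (adjusted p = 0.0574), a fold of 1.27, which is under that bound. The call also ended without GFP-positive replicate 1 (-0.82), 2 (-0.88) or 3 (-0.70), and without any 1 GFP-negative array the probe was no longer tested.

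Pdia6 gave different answers on its 2 tested probes. Its brighter probe, designed on a RefSeq transcript, read 10.07, 10.10 and 9.93 against 10.24, 10.35 and 10.08, a difference of -0.19 (limma adjusted p = 0.322). The dimmer probe, annotated to another cDNA of the gene, read 6.69, 5.76 and 6.39 against 7.39, 7.15 and 7.23 and fell by 0.98 (adjusted p = 0.0332). That call ended without GFP-positive replicate 3 or any 1 of the GFP-negative arrays (adjusted p = 0.0614 to 0.0950), its value was -0.72 without GFP-positive replicate 2, and without background correction it was -0.44. With the title letters as a block it also ended (-0.99, adjusted p = 0.0660). Whether the probes report different transcripts was not checked, since no probe sequences were used here.

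Pdia3 and P4hb differed by close to 0. Pdia3, which works with calnexin and calreticulin on glycoproteins, read 12.47 to 12.50 against 12.38 to 12.56, a difference of -0.0059 (interval -0.24 to 0.23). P4hb, the archetypal disulfide isomerase and also the beta subunit of collagen prolyl 4-hydroxylase, read 14.76, 14.92 and 14.70 against 14.83, 14.74 and 14.83. Its difference was -0.0058 (interval -0.26 to 0.25). On this scale both intervals exclude a difference as large as the Pdia5 estimate of 0.49, in either direction. The Pdia5 interval itself was 0.24 to 0.74, and that of P4hb overlapped it. P4hb read near the bright Ppic probe, which stood at 15.17 on every array. Whether signals this bright were compressed was not tested.

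**Figure D2:**
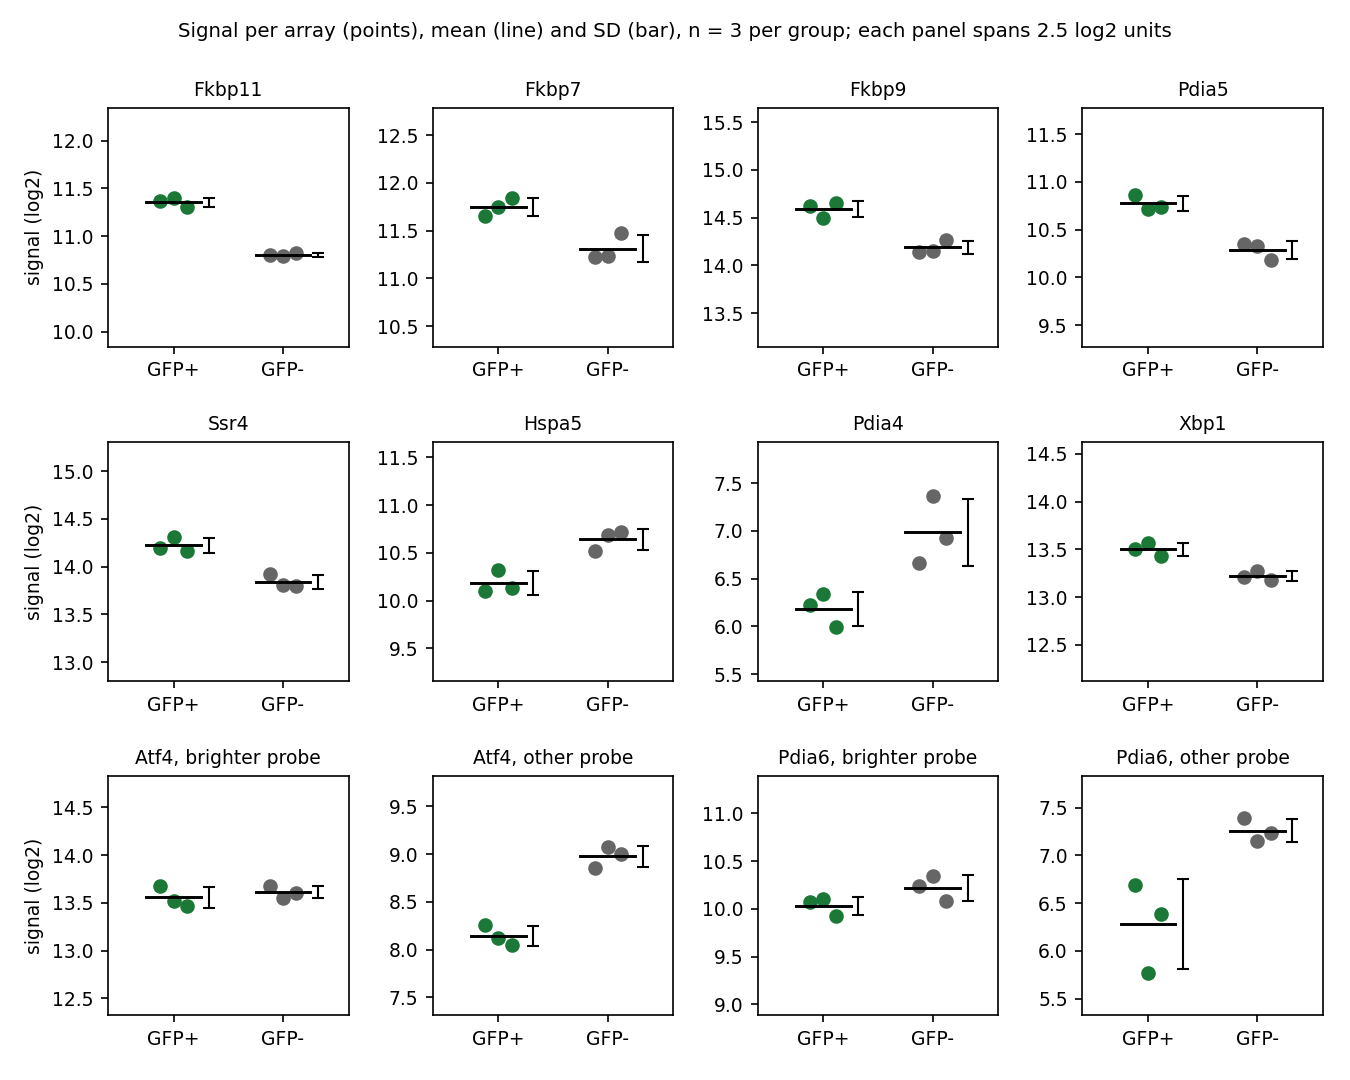
Signal of each array (log2, vertical axis) for the called members, Xbp1 and both probes of Atf4 and Pdia6, in GFP-positive (green) and GFP-negative (grey) cells; lines are means and bars the SD, n = 3 per group, and every panel spans 2.5 log2 units. The groups separate for the 7 called members and for Xbp1, and for Atf4 they separate on the dimmer probe and overlap on the brighter one.

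Of the 10 genes of the translocon, the translocon-associated TRAP complex and the signal peptidase, 9 were tested and 1 rose, with a median of 0.025. Of all tested genes 8.65% were called higher and 7.17% lower. Ssr4, the delta subunit of TRAP, read 14.20, 14.31 and 14.17 in GFP-positive and 13.93, 13.81 and 13.79 in GFP-negative cells. The groups did not overlap, and the rise was 1.30-fold (log2 0.38 ± 0.10 SE, limma adjusted p = 0.0475), with 0.33 among the RG arrays and 0.36 among the KM arrays. The dimmer Ssr4 probe differed by the same 0.38 and missed the threshold (adjusted p = 0.0570). The call ended without any 1 of the 6 arrays (0.35 to 0.43, limma adjusted p = 0.0675 to 0.159), with median scaling (0.24), and with the title letters as a block (0.35, adjusted p = 0.0855).

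The other TRAP subunits did not rise with it. Ssr2 differed by 0.19 (interval -0.08 to 0.46), Ssr3 by -0.03 (interval -0.26 to 0.20) and Ssr1 by -0.36 (interval -0.77 to 0.06). Of the channel itself, Sec61a1, the pore-forming subunit, differed by 0.025 (interval -0.22 to 0.27), and Sec61g, its small gamma subunit, by 0.22 (interval -0.06 to 0.49). Neither passed the test. Spcs1, Spcs2 and Spcs3 of the signal peptidase differed by 0.09, -0.10 and -0.02, with overlapping groups.

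None of the 6 tested genes of the unfolded protein response passed on its representative probe, beside 15.8% of all tested genes. Their median was 0.025. Xbp1, whose messenger RNA is spliced by IRE1 into the active form, read 13.50, 13.57 and 13.43 in GFP-positive and 13.21, 13.28 and 13.18 in GFP-negative cells. The groups did not overlap, but the difference of 0.28 ± 0.10 SE missed the threshold (limma adjusted p = 0.11). It passed under 1 of the 17 other ways of processing. The probe was not shown to tell spliced from unspliced Xbp1. Atf6, the membrane-bound sensor, was detected on 2 GFP-positive and 3 GFP-negative arrays. It read 6.94, 6.27 and 7.05 against 7.21, 7.27 and 7.56, all lower in GFP-positive cells, with a difference of -0.59 (adjusted p = 0.122).

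Atf4, the transcription factor translated when PERK is active, had a pair of tested probes annotated to the same RefSeq transcript. The brighter one read 13.68, 13.52 and 13.47 against 13.68, 13.55 and 13.60, a difference of -0.06 (interval -0.31 to 0.20). The dimmer one read 8.26, 8.12 and 8.05 against 8.86, 9.08 and 8.996. It fell 1.78-fold (log2 -0.84 ± 0.11 SE, limma adjusted p = 0.0040), with -0.67 among the RG arrays and -0.99 among the KM arrays. This lower value passed under all 16 alternatives in which the probe had a value of its own (-0.90 to -0.62 with the 0.05 threshold). With the mean of both probes Atf4 differed by -0.45 and passed (adjusted p = 0.0250). ATF4 is controlled largely at translation, which an array of transcripts does not measure.

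The effectors downstream did not pass. Ddit3, which encodes the stress factor CHOP, read 8.79, 9.48 and 9.45 against 9.26, 9.58 and 9.62. GFP-positive replicate 1 was the lowest of the 6, and the difference was -0.24 (interval -0.74 to 0.26). Herpud1, a part of the degradation complex and the carrier of the ERSE-II letters, read 13.67, 13.89 and 13.92 against 13.69, 13.71 and 13.77, a difference of 0.11 (interval -0.15 to 0.37). Sel1l, the adaptor of the ubiquitin ligase of that complex, read 12.52, 12.61 and 12.49 against 12.36, 12.31 and 12.39. Its groups did not overlap on this probe, its difference was 0.18 (adjusted p = 0.249), and its dimmer probe differed by -0.14.

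A further 6 members had probes but none bright enough to be tested, which does not show that the genes are silent. These were Hyou1, the exchange factor of BiP, the secreted stress protein Manf, Sdf2l1, the lectin chaperone calnexin (Canx), the channel subunit Sec61b and Edem1, a mannosidase-like protein of ER-associated degradation. Sec61b was detected on 1 array, and the other 5 on none.

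**Figure D3:**
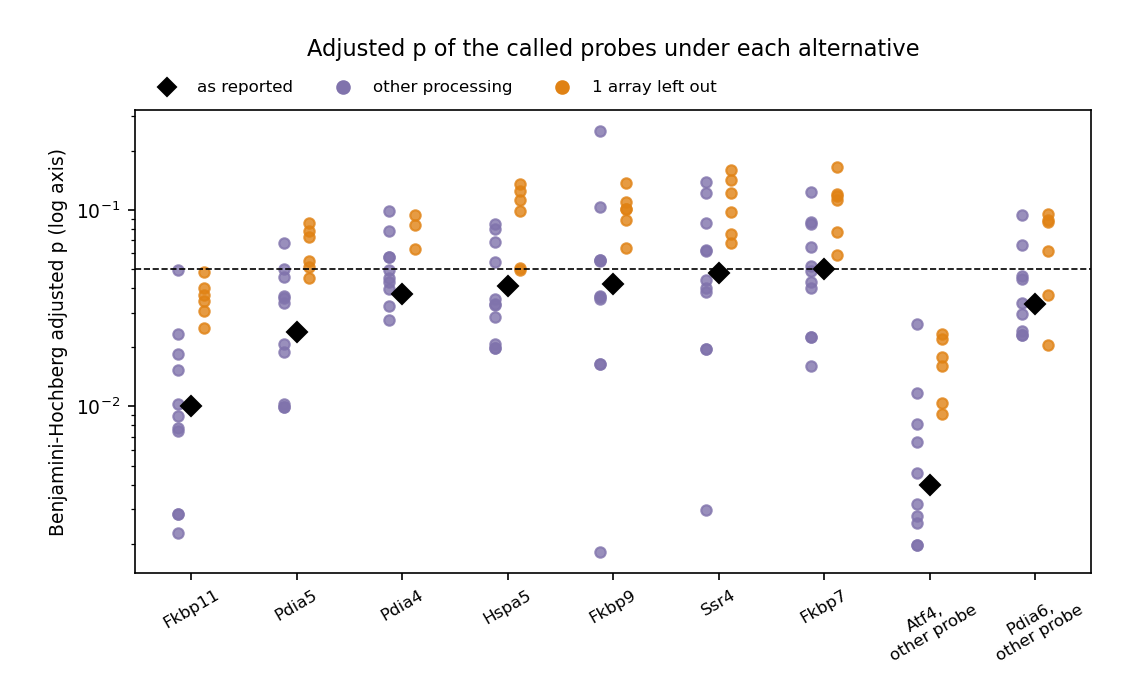
Benjamini-Hochberg adjusted p from limma (log axis) of the 7 called members and of the called dimmer probes of Atf4 and Pdia6, as reported (diamonds), under other processing (purple) and with 1 array left out (orange); the dashed line is 0.05. Fkbp11 and the Atf4 probe stay below the line throughout, and the other 7 cross it.

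Genes that work beside the members were taken from 6 further lists, also chosen with earlier results of these data known. The rule called 8.65% of all tested genes higher and 7.17% lower. Of 21 tested genes of other ER folding factors 1 rose, Sil1, a nucleotide exchange factor of BiP, by 0.65 ± 0.12 SE (limma adjusted p = 0.0121). Sil1 read 9.79, 9.97 and 9.73 against 9.21, 9.26 and 9.06, and it kept its call under all 17 alternatives. No other gene of that list passed; Tmx3 (-0.48), Mogs (0.39) and Kdelr3 (0.30) came nearest. Of 19 tested genes of the signal recognition particle, its receptor, the oligosaccharyltransferase and their partners none passed in limma, at a median of 0.045, with the oligosaccharyltransferase subunit Rpn2 (0.27, adjusted p = 0.0980) the nearest. After it came Krtcap2 (0.23), Srpr (0.24) and Sec61a2 (0.25).

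Of 17 further genes of the unfolded protein response and ER-associated degradation none passed, beside 15.8% of all tested genes, at a median of -0.09. The stress factor Atf3 came nearest with -0.48 (adjusted p = 0.0530), followed by the degradation lectin Os9 with 0.35, the phosphatase subunit gene Ppp1r15b with -0.71 and Mbtps1, which encodes a protease that cleaves ATF6, with -0.38. Of 16 tested coat proteins of ER to Golgi vesicles 1 rose, Copz2 (0.41 ± 0.10, limma adjusted p = 0.0323), beside 8.65% of all tested genes. That call ended with the title letters as a block (adjusted p = 0.0628) and without any 1 of the 6 arrays (0.37 to 0.44, adjusted p = 0.0625 to 0.125). The coat genes next in order were Sec24c (-0.32), Sar1b (-0.32) and Cope (0.34), none of which passed.

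Among 12 tested targets of ATF4, 3 rose and none fell, beside 8.65% of all tested genes higher and 7.17% lower. Mthfd2, a mitochondrial folate enzyme, read 12.47, 12.91 and 12.81 against 11.39, 11.43 and 11.23, a 2.60-fold rise (log2 1.38 ± 0.14 SE, limma adjusted p = 0.00135). Psat1, an enzyme of serine synthesis, read 13.71, 13.73 and 13.78 against 12.98, 12.84 and 12.81, a 1.83-fold rise (log2 0.87 ± 0.10). Both kept their calls under all 17 alternatives. Chac1, which degrades glutathione, was detected on all 3 GFP-positive arrays and on 1 GFP-negative array. Its fitted difference of 0.92 ± 0.23 (adjusted p = 0.0387) is set partly against background, and without background correction it was 0.39. Its call was lost without any 1 array other than GFP-negative replicate 2, and the adjusted p without single arrays ran from 0.0118 to 0.122. Asns, asparagine synthetase, read lower by -0.31 (adjusted p = 0.0716), and the list median was 0.064.

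Collagen hydroxylation genes act on the same chains as Ppib and P4hb. Of 9 tested genes 3 rose and none fell, with a median of 0.30, but P3h2 among the risers was detected in GFP-positive cells only. Of the 8 detected in both groups 2 rose, beside 665 of 8646 genes. All 8 values were above 0, beside 4067 of those 8646 genes, and the median was 0.27. Since the list was chosen with earlier results of these data known, these counts do not test it. Crtap, the partner of Ppib in collagen prolyl 3-hydroxylation, read 12.22, 12.24 and 12.33 against 11.54, 11.74 and 11.61, a 1.55-fold rise (log2 0.63 ± 0.10 SE, limma adjusted p = 0.00883). That call held under all 17 alternatives. P3h3 rose by 0.41 ± 0.10 (adjusted p = 0.0386), a call lost without any 1 of the 6 arrays (0.35 to 0.44, adjusted p = 0.0802 to 0.0987). P3h2, detected on every GFP-positive array, stayed at background on the others. A bound like that for Pdia4 put it 1.39-fold higher. Its fitted difference passed (limma adjusted p = 0.0169), but P3h2 entered the test through its high group. Without background correction the P3h2 difference was 0.30, a fold under that bound, and without GFP-negative replicate 3 the adjusted p was 0.0592. The catalytic partner of P4hb, P4ha2, differed by 0.43 (adjusted p = 0.0594).

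The sign of 5 small list medians changed with the scaling between arrays. With median scaling, which put the median of all genes at -0.07, the medians of the translocon group (-0.033), the unfolded protein response members (-0.08), the other folding factors (-0.023), the further translocation genes (-0.09) and the vesicle coats (-0.042) were below 0. Those of the prolyl isomerases (0.23) and of collagen hydroxylation (0.25) were above 0 with it, and also with the authors' values and without background correction. With median scaling all 9 collagen hydroxylation values, P3h2 included, were above 0, but the lowest was 0.0051.

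**Figure D4:**
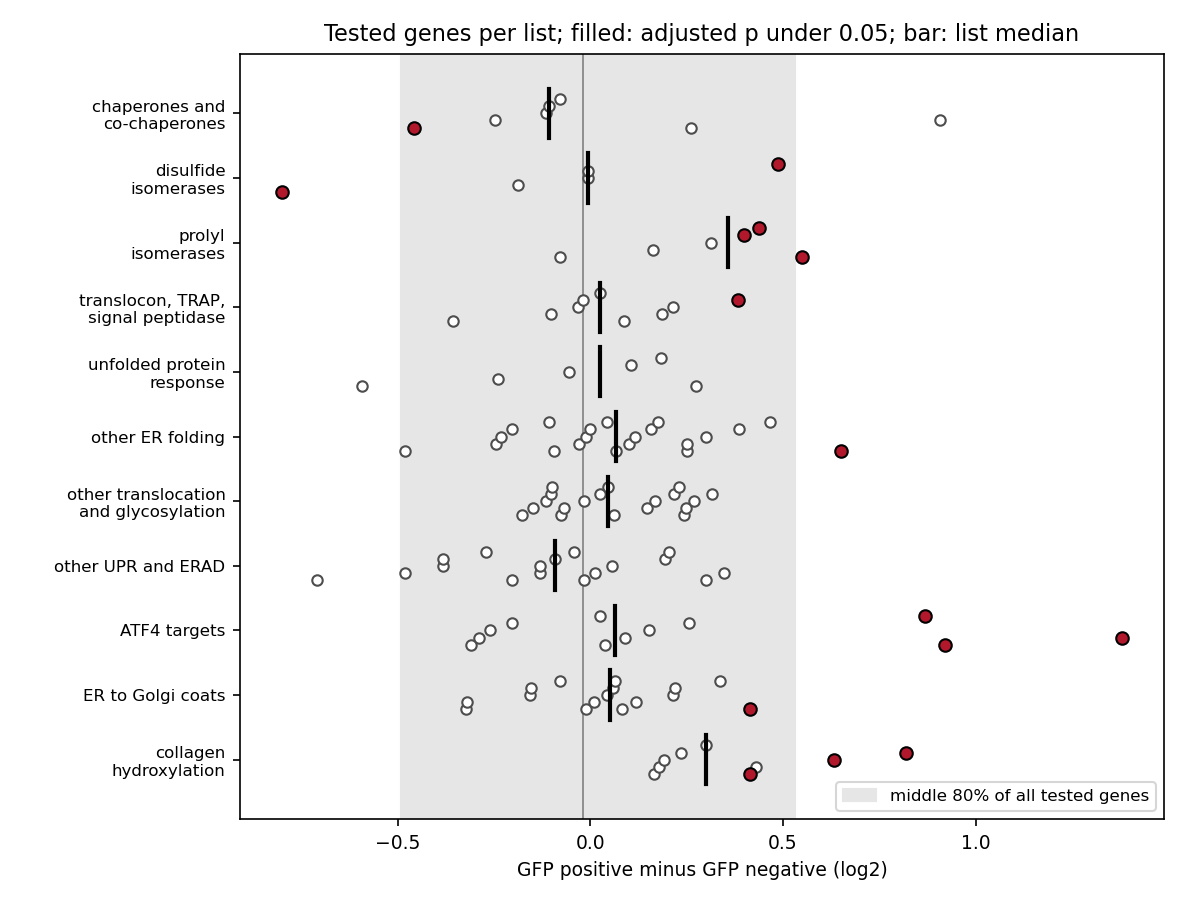
Difference between GFP-positive and GFP-negative cells (log2, horizontal axis) of every tested gene of the 5 member groups and the 6 further lists; filled points passed at an adjusted p under 0.05, black bars are list medians, and the grey band holds the middle 80% of all tested genes. Prolyl isomerases (median 0.36) and collagen hydroxylation genes (median 0.30) sit to the right of the other lists. The medians of those other lists lie between -0.11 and 0.07 and in 5 of them change sign with median scaling. P3h2 and Pdia4 are fitted values against background, and the lists were chosen with earlier results of these data known.

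Some markers of other cells moved with the sort. Of 5 mural cell markers, those of the vessel wall, 3 were tested and all rose (Acta2, Myh11 and Notch3). The summed linear signal of the list was 5853 to 8322 on the GFP-positive arrays and 3294 to 4291 on the GFP-negative arrays. This sum follows the bright Acta2 probe (mean log2 12.59 against 11.64). Rgs5 was detected on 1 array and Cspg4 on 2. Of 6 endothelial markers 5 were tested and only Tek passed, as lower (-1.64). Pecam1, which encodes CD31, read lower by -0.41, while Emcn (0.74, groups not overlapping, adjusted p = 0.0657), Cdh5 (0.61) and Vwf (0.04) read higher. The sum of the list, 3563 to 4400 against 9725 to 10673, follows the bright Tek probe. Of 5 plasma cell markers, a cell type rich in ER, the shared epithelial and plasma cell gene Sdc1 rose (0.98 ± 0.13 SE), while Mzb1, Jchain, Prdm1 and Tnfrsf17 were not detected on any array; the list sum was 381 to 421 against 249 to 286. Of the leukocyte markers with a probe none of 4 was detected, Ptprc included. Plin1, Cidec, Lep and Fabp4 of the 5 adipocyte markers were not detected, and the sum of that list was 236 to 524 against 205 to 285. The fifth, Adipoq, was detected on 3 GFP-positive and 2 GFP-negative arrays. It read 8.50, 6.52 and 7.09 against 7.06, 5.89 and 6.63, and its difference of 0.85 did not pass (limma adjusted p = 0.326). Mesothelial markers (Msln and Upk3b detected, Lrrn4, Krt19 and Krt18 not) summed to 423 to 1268 against 500 to 593. The stromal markers Pdgfra, Pdgfrb, Col1a1, Dcn and Lum were detected on every array and summed to 64674 to 70597 against 62378 to 67565. Pdgfrb, the gene of the protein used in the sort, rose by 0.58 (adjusted p = 0.0172), and the other 4 did not pass. Of 8 genes that respond to cell isolation Junb fell (-0.68) and none rose, with Hspa1a and Hspa1b at 0.91 (adjusted p = 0.0579) and 1.37 (adjusted p = 0.0998); the sum was 76431 to 78521 against 71994 to 75844. The part of these cells and of isolation stress in the ER gene differences was not tested.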

How the data were processed

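The deposited intensity table gives, per the file headers, a linear signal and a detection p-value for each of 45281 probes on 6 arrays, without normalization between arrays; the authors' second table holds normalized intensity values, with medians of 154.1 or 154.2. GenomeStudio is named in the submitters' processing notes. RNA was amplified in 2 rounds, per the labels' protocols, which may alter relative signals. Signals were corrected and normalized with neqc (limma 3.58.1, R 4.3.3; background inferred from the detection p-values, offset 16, quantile, log2). A probe was tested if its detection p was below 0.01 in 3 or more arrays (13727 probes) with lmFit and eBayes, 2-sided. The tested probe with the highest mean represented a gene. Array medians were 145.8 to 162.0, 13068 to 14026 probes were detected per array, and correlations were 0.982 to 0.990 within and 0.948 to 0.960 between groups; the number of arrays limits precision. Members and lists were chosen with earlier results of these data known. All members were named, and of other lists the 4 genes with the smallest p and any past the threshold. On simulated data the procedure recovered most large changes, with more false calls than nominal. The p-values measure the spread between these samples only. Alternatives changed the background correction, scaling, detection filter, block, prior, weights, probe summary, threshold and arrays used. Symbols came from the platform annotation, and the RefSeq gene table (GRCm38.p6) changed 0 of them.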

Additional observations from a re-analysis of the deposited data

How the results depend on the processing

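Calls of single ER genes lay close to the threshold. Against 5 members higher and 2 lower, the counts were 2 and 0 with the title letters as a block, 2 and 2 with median scaling or with detection on at least 1 array, 2 and 1 with no detection filter, and 5 and 1 with the authors' normalized values, without background correction or with detection on all 6 arrays. They were 5 and 4 with the mean over a gene's probes, 0 and 0 at a threshold of 0.01, and 1 and 1 with the replicate block. Whether the numbers pair the samples was not stated. Deviations of same-numbered samples correlated at -0.07, -0.20 and 0.075, and those of the other pairs at -0.20 to 0.25. With 3 arrays per group these values cannot settle it. Without genes detected in 1 group only, an alternative chosen after seeing the data, the counts were 5 and 1. Leaving out single arrays gave 1 to 2 higher and 0 to 1 lower. Over all genes, 763 were higher and 632 lower; a threshold of 0.01 left 381 and 208, a threshold of 0.1 gave 1006 lower, no detection filter 409 lower, and the replicate block 383 lower (558 higher), with 451 to 693 higher and 223 to 534 lower without single arrays. No called member changed sign. Members near 0 did. Creld2 read 0.012 with the mean over its probes, Sec61a1 -0.033 and Spcs1 -0.0065 with median scaling, and Spcs2 0.025 with the title letters as a block. Without single arrays Pdia3 ran from -0.060 to 0.025, P4hb from -0.068 to 0.044, Fkbp2 from -0.20 to 0.036, Sec61a1 from -0.045 to 0.060, Ssr3 from -0.065 to 0.00014, Spcs2 from -0.26 to 0.046 and Spcs3 from -0.060 to 0.020. The causes were not tested, apart from the fewer arrays or probes that these settings use by construction. Dim probes, such as those of Pdia4, Calr and Atf6, are limited by signal over background.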
